A study of Mus musculus with 2 samples.

Results

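Siglecs and paired inhibitory receptors are cell-surface receptors of immune cells, and 8 of their genes were followed here in the injured mouse brain: Siglecf, Siglech, Siglec1, Siglece, Cd33, Lilrb4a, Pilra and Cd300lf. They were chosen by gene symbol, and all 8 were found among the 19070 genes of the expression tables. The choice was made with values from these sections already known, so the values below describe the 8 genes and no test was made on them. The tissue was brain from male C57Bl6 mice aged 3 months after CCI, controlled cortical impact, a model of brain trauma made by pressing a driven tip into the cortex. Of these, 1 section was taken 3 days and 1 section 28 days after the impact, no uninjured or sham section was analysed here, and the opposite side of each section served as its reference. With 1 section at each time, animal, section and time cannot be told apart. All intervals are 95% intervals and cover counting error only.

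Siglecs bind sialic acid, the sugar that caps glycans on nearly all vertebrate cells. Most carry an inhibitory motif in the cytoplasmic tail, the ITIM, which recruits the phosphatases encoded by Ptpn6 and Ptpn11 and dampens signals from activating receptors. Siglec-H lacks this motif and signals through the adaptor encoded by Tyrobp, and Siglec-1 carries neither and acts mainly in adhesion. Lilrb4a, Pilra and Cd300lf encode ITIM-bearing receptors with a different extracellular part, and their families hold activating relatives, hence the name paired receptors. In the brain these genes are known from microglia, from the macrophages of the brain borders and from blood-derived myeloid cells.

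Siglecf, Cd33, Siglece and Siglech lie on chromosome 7, the first 3 within the same cluster between 43351341 and 43672044 and Siglech apart from them at 55768154 to 55779448 (RefSeq, GRCm38.p6, the assembly also called mm10). Siglec1 is on chromosome 2 at 131067801 to 131086778, Pilra on chromosome 5 at 137821952 to 137836278, Lilrb4a on chromosome 10 at 51490898 to 51496613 and Cd300lf on chromosome 11 at 115116214 to 115135372. The RefSeq promoter table held 6 of the 8 genes, with Siglec1 and Lilrb4a not among them. The 250 bases upstream of the start site are shown for the 4 genes of chromosome 7, since these neighbours had unlike levels in the lesion. Capitals mark GAGGAA or its opposite-strand form TTCCTC, the core bound by PU.1, the master transcription factor of myeloid cells.
Siglecf, chr7:43351091-43351340, plus strand: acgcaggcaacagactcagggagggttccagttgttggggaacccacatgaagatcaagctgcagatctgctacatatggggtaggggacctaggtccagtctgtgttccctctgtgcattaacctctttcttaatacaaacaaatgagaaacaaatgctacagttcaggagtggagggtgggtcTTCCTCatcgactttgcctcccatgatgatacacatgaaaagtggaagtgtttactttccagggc
Cd33, chr7:43533172-43533421, minus strand: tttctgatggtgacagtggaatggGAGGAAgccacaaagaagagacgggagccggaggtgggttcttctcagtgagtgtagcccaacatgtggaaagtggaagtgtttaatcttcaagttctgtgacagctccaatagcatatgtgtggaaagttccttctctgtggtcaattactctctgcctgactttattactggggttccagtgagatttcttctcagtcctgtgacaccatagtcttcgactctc
Siglece, chr7:43660162-43660411, minus strand: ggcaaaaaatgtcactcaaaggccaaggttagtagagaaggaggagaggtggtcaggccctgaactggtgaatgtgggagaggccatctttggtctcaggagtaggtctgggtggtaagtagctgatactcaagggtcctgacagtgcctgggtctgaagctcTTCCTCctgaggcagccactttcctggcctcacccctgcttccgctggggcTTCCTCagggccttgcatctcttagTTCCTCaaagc
Siglech, chr7:55767934-55768183, plus strand: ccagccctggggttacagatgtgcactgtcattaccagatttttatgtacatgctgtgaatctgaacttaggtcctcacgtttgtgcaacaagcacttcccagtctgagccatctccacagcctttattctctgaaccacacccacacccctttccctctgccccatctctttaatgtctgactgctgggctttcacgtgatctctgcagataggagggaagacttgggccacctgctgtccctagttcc
The letters occurred once upstream of Siglecf, Cd33, Pilra and Cd300lf and at 3 positions upstream of Siglece, and were not in the window of Siglech. They were in 5 of the 6 promoters, and in 23.3% of all 32851 promoters of this length. A match of letters does not show a bound site.

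Transcripts were counted as UMIs, unique molecular identifiers, in square bins 16 µm wide. After bins with under 100 UMIs were left out, 119617 bins remained at 3 days and 103316 at 28 days. The median bin held 851 UMIs at 3 days and 610 at 28 days. Array columns below 130 at 3 days and below 240 at 28 days were taken as the injured side, giving 39116 and 49478 bins against 80501 and 53838 on the opposite side. The array held 2080 µm of the injured side at 3 days and 3840 µm at 28 days, and at 3 days 34 tiles of the lesion zone described next touched the array edge, so part of the lesion may lie outside it. A lesion zone was drawn within the injured side from Cd68, Lyz2, Ctsz, Lgals3, Cd52 and Laptm5, genes of phagocytes, and held 8522 bins at 3 days and 13559 at 28 days. Because phagocyte genes defined it, genes of the same cells are higher there by construction, and the zone serves to place the receptors and not to establish their increase. In the zone, genes of oligodendrocytes summed to 11259 CPM (UMIs of the gene per 1000000 UMIs of the area) against 3447 on the opposite side at 3 days, and those of neurons to 1705 against 5819, so its tissue makeup differed in more than its phagocytes. Bins were shallower in the zone, with medians of 506 and 399 UMIs against 871 and 657 on the opposite side, and levels are therefore given as CPM and, where it matters, per bin.

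The receptors were sparse. At 3 days the whole section held between 91 UMIs (Siglecf) and 1519 UMIs (Siglech) per gene, and at 28 days between 41 (Pilra) and 1158 (Siglech). On the opposite side at 3 days, the levels were 11.8 CPM for Siglech, 6.11 for Cd33, 1.33 for Siglece, 0.844 for Siglec1, 0.832 for Lilrb4a, 0.531 for Cd300lf, 0.519 for Siglecf and 0.482 for Pilra. At 28 days they were 12.3 CPM for Siglech, 7.02 for Cd33, 1.13 for Siglece, 0.841 for Siglecf, 0.620 for Siglec1 and Cd300lf, 0.576 for Lilrb4a and 0.111 for Pilra. Each gene is read by its own probes with their own efficiency, so an order between genes is an order of probe signal and not of transcripts. As a guide to unspecific signal, 12 genes of other organs were read on the opposite side. Of these, 10 lay between 0 and 0.169 CPM at 3 days and between 0 and 0.266 CPM at 28 days. The other 2 were higher, at 1.25 and 1.64 CPM for Pnlip, a pancreatic lipase, and 0.904 and 0.531 CPM for Sftpc, a lung surfactant gene. The opposite-side levels of Siglecf, Siglec1, Lilrb4a, Pilra and Cd300lf lay above the 10 and below Pnlip at 3 days, as did those of Siglecf, Siglec1, Siglece, Lilrb4a and Cd300lf at 28 days, when Pilra lay within the range of the 10. Since each gene has its own probes, this does not settle how much of a low level is unspecific.

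**Figure D1:**
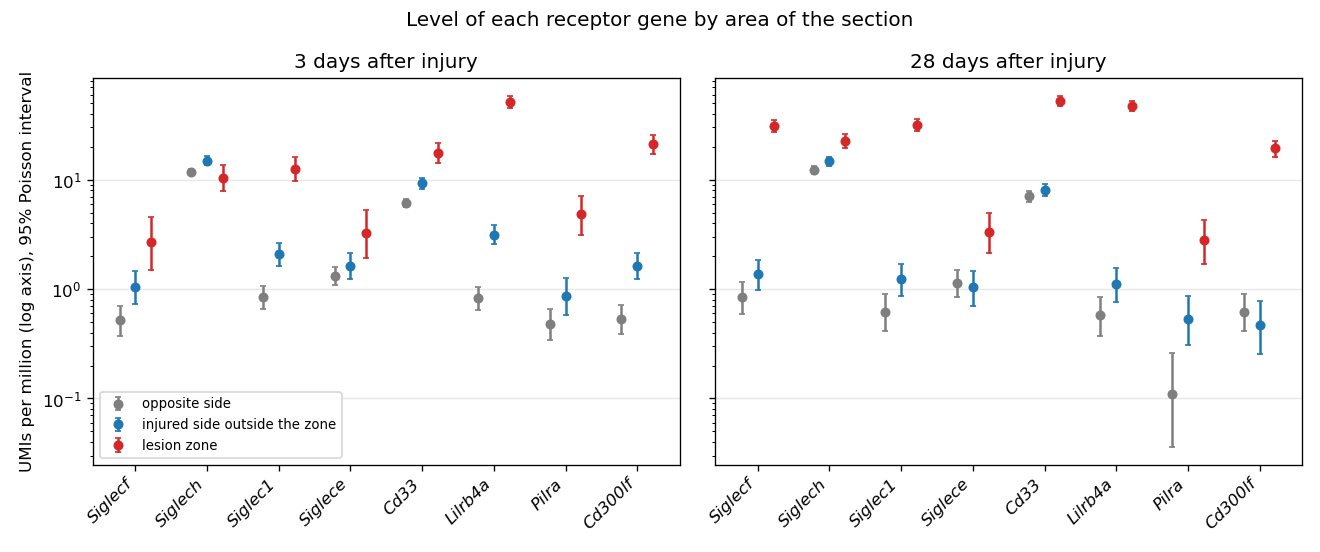
Level of the 8 receptor genes in CPM on a log axis at 3 days (left) and 28 days (right), for the opposite side (grey), the injured side outside the lesion zone (blue) and the lesion zone (red), with 95% Poisson intervals. At 28 days Siglecf, Siglec1, Cd33 and Lilrb4a were all at 31.0 CPM or more in the zone, whereas at 3 days only Lilrb4a was.

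Across the whole injured side, 5 of 8 genes were at least 2-fold higher than on the opposite side at 3 days and 6 of 8 at 28 days. Over all genes measured, 10.5% reached 2-fold at 3 days and 6.43% at 28 days. The median log2 ratio of the 8 was 1.42 at 3 days and 2.86 at 28 days, against 0.14 and 0.04 over all genes. In bins thinned to 300 UMIs the medians were 1.18 over 8 genes and 1.75 over 7, Pilra being under the minimum of 20 UMIs at 28 days. Lilrb4a had the highest log2 ratio at both times, 3.55 (3.19 to 3.95) and 4.08 (3.54 to 4.74). Siglech and Siglece stayed under 2-fold at both times, at 0.28 and 0.40 for Siglech and 0.49 and 0.39 for Siglece. The 28-day interval of Siglece, -0.18 to 0.97, held 0, and in bins thinned to 300 UMIs that ratio was -0.47. With the opposite side limited to columns as near the border as the injured side reached, the 3-day ratios of Siglecf and Cd300lf were 0.80 and 1.95 in place of 1.30 and 3.01. In the lesion zone 7 of 8 genes were at least 2-fold higher than on the opposite side at each time, the exception being Siglech, against 21.9% of all genes at 3 days and 17.4% at 28 days. The median zone ratio was 2.88 at 3 days and 4.75 at 28 days on the log2 scale, and 3.05 and 3.71 in thinned bins over 7 genes each. Counted per bin, the 3-day zone ratios of Cd33 and Siglece were 0.77 and 0.58 and the 28-day ratio of Siglece was 0.92, all under 2-fold. In bins thinned to 300 UMIs, Siglece was at 0.88 and 0.51. Pnlip itself was at 3.48 CPM in the zone at 3 days and 1.956 CPM at 28 days. Its log2 ratios were 1.505 (0.66 to 2.20) and 0.30 (-0.68 to 1.09). At 3 days the ratio of Siglece, 1.34, was thus no higher than that of a gene of another organ. The 3-day ratio of Cd33, 1.53 (1.19 to 1.85), was close to that of Pnlip. The 3-day interval of Siglecf, 1.40 to 3.28, also met that of Pnlip.

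**Figure D2:**
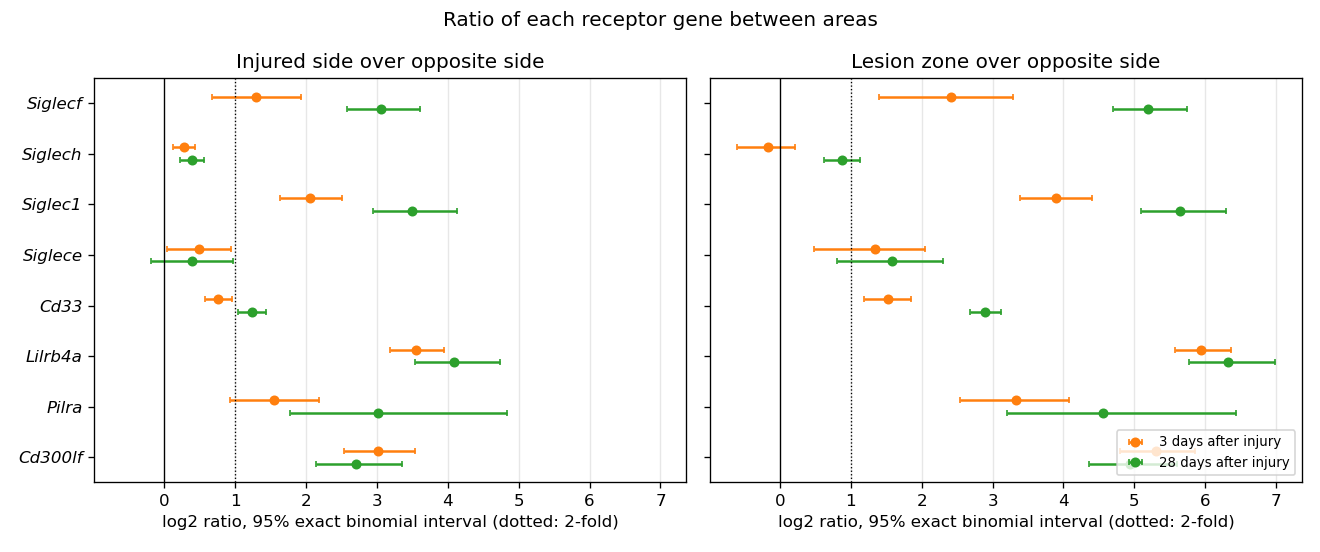
Log2 ratio of each receptor gene between the injured and the opposite side (left) and between the lesion zone and the opposite side (right) at 3 days (orange) and 28 days (green), with 95% exact binomial intervals; the dotted line marks 2-fold. The interval of the difference between the sections excluded 0 for the zone ratios of Siglecf, Siglech, Siglec1 and Cd33 and held 0 for those of Siglece, Lilrb4a, Pilra and Cd300lf.

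Among the 8 genes, Siglecf had the largest difference in zone ratio between the sections. Siglec-F is known from eosinophils and alveolar macrophages. In the zone it gave 14 UMIs at 3 days, 2.71 CPM (1.48 to 4.54), and 222 UMIs at 28 days, 31.0 CPM (27.1 to 35.4). On the opposite side it gave 43 UMIs in 80501 bins and 38 UMIs in 53838 bins. The log2 zone ratio was 2.42 at 3 days and 5.19 at 28 days, a difference of 2.77 (1.78 to 3.76), where 5.65% of all genes differed by at least 1 in that direction. Of the eosinophil genes, Prg2 gave 3 UMIs, Ccr3 4, Il5ra 0 and Epx 14 in the zone at 28 days, a sum of 2.93 CPM against 0.797 on the opposite side. Epx, the only one of them with enough UMIs, had a log2 zone ratio of 2.23 (1.11 to 3.29), and the part of eosinophils in the result was not tested. Over 403 tiles of 256 µm in the 28-day section, the levels of Siglecf were most like those of Cst7 (Pearson r = 0.72) and Grn (0.71), genes of lysosomes and of microglia in disease. These correlations are descriptions over neighbouring tiles of 1 section.

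Cd33, a myeloid Siglec, was detected on both sides and at both times. Its level in the zone was 17.6 CPM (14.2 to 21.6, 91 UMIs) at 3 days and 52.4 CPM (47.2 to 58.0, 375 UMIs) at 28 days. The opposite side gave 6.11 and 7.02 CPM, and the log2 zone ratios of 1.53 and 2.90 differed by 1.37 (0.98 to 1.76). On the injured side outside the zone Cd33 was at 9.23 CPM at 3 days and at 8.04 CPM later. At 3 days this was above the opposite side, with a log2 ratio of 0.60 (0.38 to 0.80), and at 28 days the interval of 0.20 (-0.05 to 0.44) held 0. The genes most like Cd33 in space were C1qa, Csf1r and Laptm5 at 3 days (r = 0.31 for each) and C1qb (0.63) and Prdx6 (0.61) at 28 days. Laptm5 helped to draw the zone.

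Siglece, an inhibitory Siglec of neutrophils, monocytes and microglia, was low throughout. The zone held 17 UMIs at 3 days, 3.29 CPM (1.91 to 5.26), and 24 UMIs at 28 days, 3.35 CPM (2.15 to 4.99). Its zone ratio was 1.34 (0.48 to 2.05) and 1.59 (0.81 to 2.30) on the log2 scale, and the difference between sections of 0.24 ran from -0.76 to 1.25. Neighbouring genes of the chromosome 7 cluster had unlike values, with log2 ratios between zone levels at 28 and 3 days of 3.47 (2.74 to 4.41) for Siglecf, 1.57 (1.24 to 1.92) for Cd33 and 0.02 (-0.93 to 1.02) for Siglece.

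Siglech, a marker of microglia and of plasmacytoid dendritic cells, was spread over the whole tissue and had the lowest zone ratio of the 8 genes at both times. It gave 10.4 CPM (7.84 to 13.6) in the zone at 3 days against 11.8 on the opposite side, a log2 ratio of -0.17 (-0.60 to 0.22). In the later section it gave 22.6 CPM (19.3 to 26.4) against 12.3, a ratio of 0.88 (0.62 to 1.13). Counted per bin, the zone at 3 days held 6.34 UMIs per 1000 bins against 12.2 on the opposite side, and at 28 days 11.9 against 10.3. The per-bin log2 ratios were -0.93 at 3 days and 0.21 at 28 days, so the higher level at 28 days was small without the correction for depth. Other microglial genes were higher in the same zone at 3 days, with log2 ratios of 1.61 (1.41 to 1.79) for Tmem119, 0.82 (0.54 to 1.07) for P2ry12 and 1.60 (1.37 to 1.82) for Gpr34, none of whose intervals met that of Siglech. The genes most like Siglech in space were Tmem119 (r = 0.38), Selplg (0.33) and Csf1r (0.33) at 3 days and Csf1r (0.46), Mpeg1 (0.44) and Trem2 (0.44) at 28 days. Of 7 genes listed for plasmacytoid dendritic cells, 3 of 5 measured at 3 days and 4 of 4 at 28 days were at least 2-fold higher in the zone and 1 at 3 days, Cox6a2, was at least 2-fold lower. Over all genes 21.9% at 3 days and 17.4% at 28 days were at least 2-fold higher. The sum of the list was 166 CPM against 21.4 and 192 CPM against 22.6. Most of that sum came from Bst2 and Irf7, interferon-induced genes of many cell types, with 513 and 331 UMIs at 3 days and 852 and 375 at 28 days. Ccr9 gave 2 and 6 UMIs in the zone and Klk1 gave 0 and 4, and the part of these cells in the levels of Siglech was not tested.

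Siglec1, the adhesion receptor also called sialoadhesin or CD169, is induced by interferon and marks macrophages at tissue borders. It gave 65 UMIs in the zone at 3 days, 12.6 CPM (9.70 to 16.02), and 226 at 28 days, 31.6 CPM (27.6 to 36.0). The opposite side gave 70 and 28 UMIs, 0.844 and 0.620 CPM. The log2 zone ratios of 3.90 and 5.65 differed by 1.75 (1.01 to 2.49). The 3-day ratio was 4.55 without bins within 48 µm of a tissue edge. Counted per bin, the ratios were 3.13 at 3 days and 4.98 at 28 days. At 3 days Siglec1 was also present at tissue edges of the opposite side, inner openings included. Bins within 48 µm of such an edge held 23 of its UMIs, 12.0 CPM. Away from edges it was at 1.71 CPM in white matter (6 UMIs) and 6.69 CPM in choroid plexus (4 UMIs). The bins outside these classes gave 0.481 CPM. At 28 days the edge bins of the opposite side gave 3 UMIs, 3.00 CPM. In space Siglec1 was most like Lyz2 (r = 0.59), Ifi207 (0.58) and Ms4a6c (0.57) at 3 days and Apoc2 (0.67), Ctsb (0.65) and Ifi207 (0.65) at 28 days, Ifi207 being a gene of the interferon-inducible p200 family. Lyz2 helped to draw the zone.

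Of the paired inhibitory receptors outside the Siglec family, Lilrb4a was already high at 3 days. It encodes gp49B, an ITIM-bearing receptor of myeloid cells and mast cells. The zone gave 267 UMIs at 3 days, 51.6 CPM (45.6 to 58.2), and 336 at 28 days, 46.9 CPM (42.1 to 52.2), while the opposite side gave 69 and 26 UMIs. The log2 zone ratios were 5.95 (5.57 to 6.36) and 6.32 (5.77 to 6.99), and their difference of 0.38 ran from -0.31 to 1.06. Elsewhere on the injured side Lilrb4a was at 3.15 CPM at 3 days and 1.10 CPM at 28 days, a log2 ratio of -1.50 (-2.13 to -0.94) between the sections. Lilrb4a was most like Msr1 (r = 0.71), Ctsb (0.67) and Lgals3 (0.67) at 3 days and Ctsd (0.76), Apoe (0.76) and Ctsb (0.75) at 28 days. Lgals3 helped to draw the zone. Mice carry a close copy of this gene, Lilrb4b, and whether the probes separate the copies is not given in the sources used here.

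Cd300lf, a receptor for phosphatidylserine and ceramide, gave 109 UMIs in the zone at 3 days, 21.1 CPM (17.3 to 25.4), and 138 at 28 days, 19.3 CPM (16.2 to 22.8). Its zone ratios were 5.30 and 4.94 on the log2 scale, a difference of -0.36 (-1.13 to 0.41). The 3-day ratio was 4.24 with the opposite side limited as above, and the 28-day ratio 3.71 in thinned bins. On the injured side outside the zone it read 1.64 CPM at 3 days and 0.467 at 28 days, a log2 ratio of -1.77 (-2.77 to -0.94). In the 3-day section its closest genes were Msr1 (r = 0.58), Lcn2 (0.57) and Tgm1 (0.53). Pilra, which binds sialylated O-glycans, gave 25 UMIs, 4.83 CPM (3.13 to 7.13), and 20 UMIs, 2.79 CPM (1.71 to 4.32), in the zone. Its zone ratios of 3.34 and 4.56 differed by 1.22 (-0.31 to 2.76), and the 28-day ratio rested on 5 UMIs on the opposite side. Between the whole sides, a log2 difference of at least 1 between the sections, found for 3.25% of all genes, was seen for Siglecf at 1.76 (0.99 to 2.52), Siglec1 at 1.43 (0.73 to 2.12) and Pilra at 1.47 (0.05 to 2.89). Pilra itself was not higher on the injured side at 28 days, at 1.41 CPM at 3 days and 0.970 at 28 days. Its level on the opposite side was 0.482 CPM at 3 days and 0.111 at 28 days. In CPM, the zone levels of Lilrb4a and Cd300lf differed between the times by less than their counting error. Their log2 ratios between zone levels at 28 and 3 days were -0.14 (-0.37 to 0.10) and -0.13 (-0.50 to 0.25). Siglecf, Cd33, Siglec1 and Siglech were higher at 28 days in CPM. The zone also held more UMIs of myeloid genes at 28 days, and zone levels relative to these are given below.

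**Figure D3:**
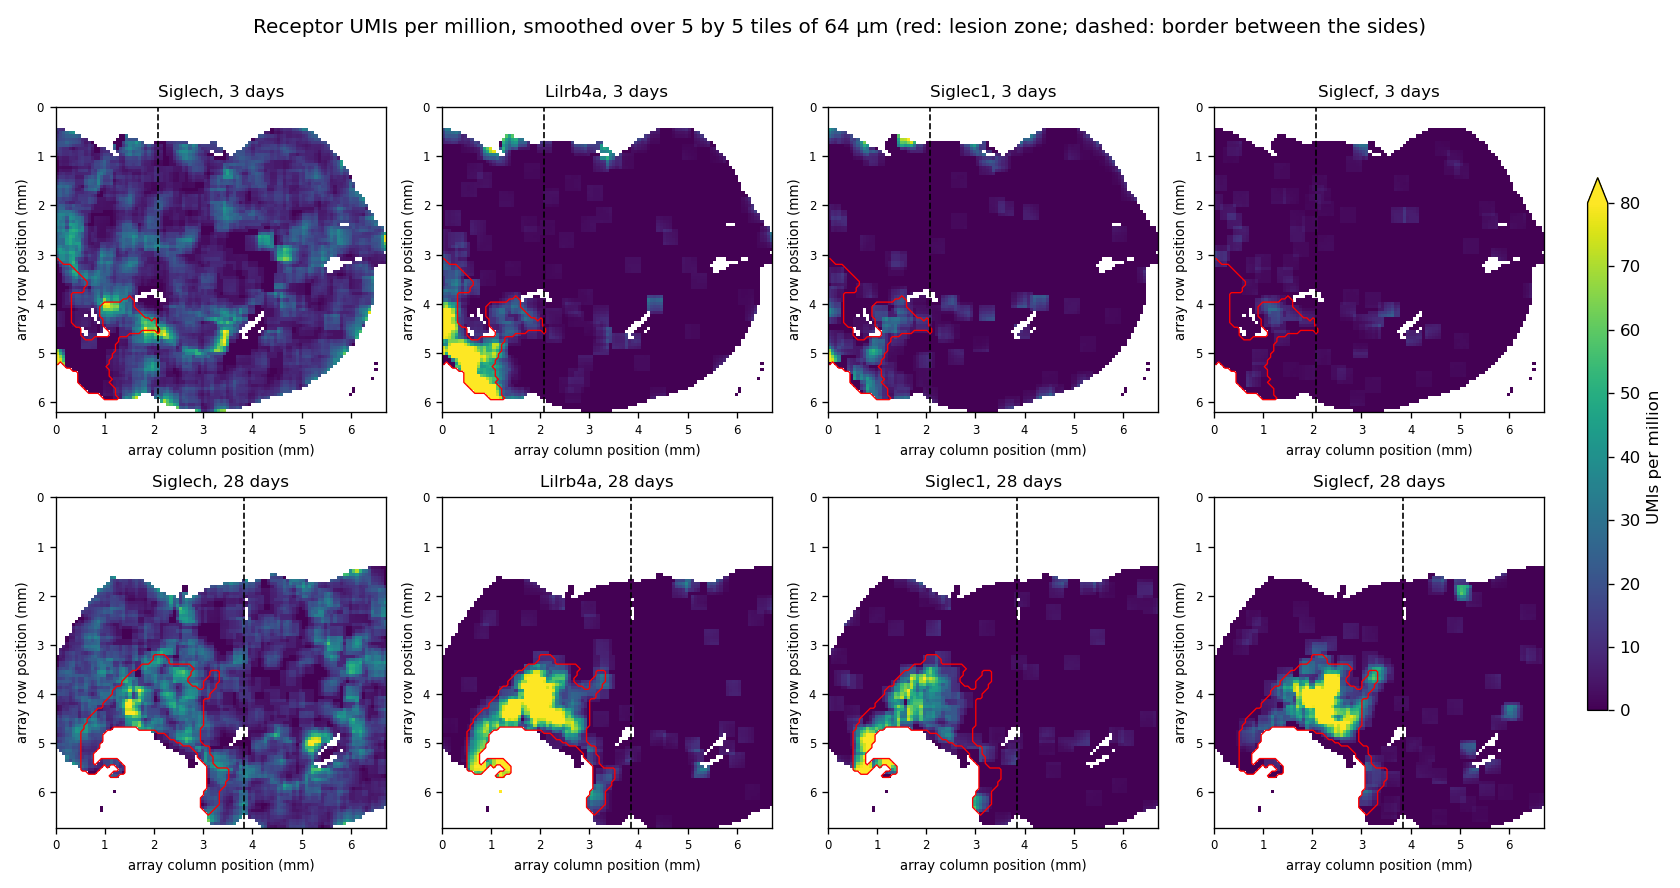
Maps of Siglech, Lilrb4a, Siglec1 and Siglecf at 3 days (top) and 28 days (bottom) in CPM, averaged over 5 by 5 tiles of 64 µm, on a scale capped at 80; axes give the position on the array in mm, the red line encloses the lesion zone and the dashed line divides the sides. Siglech covered the section, Lilrb4a filled the lower part of the zone at 3 days, and at 28 days Siglecf was concentrated in the core and Siglec1 also along the open rim.

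The receptors occupied different parts of the lesion zone. At 3 days Siglech was at 14.9 CPM in the outer 150 µm of the zone, 4.07 CPM at 150 to 300 µm and 2.77 CPM deeper, the last being 1 UMI. Cd300lf ran the other way, with 11.3, 34.3 and 41.5 CPM over the same depths. Lilrb4a was high at every depth, with 44.0, 65.6 and 49.8 CPM. In zone tiles of 64 µm, 2 of the 44 tiles with Siglech also held Lilrb4a (4.55%), which was in 31.1% of all zone tiles. Of the 54 tiles with Siglec1, 55.6% held Lilrb4a.

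At 28 days Siglecf was at 11.2 CPM in the outer 150 µm, 44.9 CPM at 150 to 300 µm and 84.8 CPM deeper. Per 1000 bins the same depths gave 6.99, 19.2 and 34.5 UMIs, so the gradient held without the depth correction. Lilrb4a had a shallower gradient of 31.5, 61.6 and 84.8 CPM. The sum of 10 pan-myeloid genes such as Csf1r and Ctss also increased inward, at 5270, 8360 and 11585 CPM, and its part in these gradients was not tested. Siglec1 was at 31.7, 30.4 and 32.4 CPM, and per 1000 bins at 19.9, 13.03 and 13.2 UMIs. Cd300lf was highest outside, at 23.9, 9.42 and 13.9 CPM. The zone at 28 days bordered a tissue-free space as well as tissue, so its bins were also divided by their distance to the nearest tissue edge. Siglec1 was at 57.3 CPM (47.9 to 68.0) within 160 µm of an edge and 19.6 CPM (15.9 to 24.0) beyond it. Cd300lf was at 43.2 CPM (35.1 to 52.6) and 8.18 CPM (5.85 to 11.1), and Siglecf at 7.05 CPM (4.03 to 11.5) and 42.1 CPM (36.6 to 48.3). At 3 days Siglec1 was at 12.8 and 12.4 CPM and Cd300lf at 20.05 and 21.6 CPM within and beyond 160 µm, while Siglecf gave 0 UMIs within (0 to 2.05 CPM) and 14 UMIs beyond, 4.15 CPM (2.27 to 6.95). Genes of meningeal fibroblasts summed to 1364 CPM within 160 µm of an edge and 94.1 CPM beyond it at 28 days, those of infiltrating macrophages to 427 and 132 CPM, and those of border macrophages to 147 and 63.2 CPM, and their part in the result was not tested. At 28 days, zone tiles with Cd300lf held Siglec1 in 46.9% of cases, against 14.8% of all zone tiles. The same tiles also held each other receptor more often than zone tiles as a whole. Cd33 was in 54.3% of them against 28.6%, Lilrb4a in 53.1% against 24.7% and Pilra in 8.64% against 2.10%. Tiles were not matched for depth, so the pairing is not particular to Siglec1.

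Beyond the zone the levels dropped within 250 µm for most genes. At 28 days Siglec1 was at 1.63 CPM and Cd300lf at 0.594 CPM in the first 250 µm outside the zone, and Siglecf was at 4.16 CPM there and 0.458 CPM in the next 250 µm. Lilrb4a at 3 days was at 9.30 CPM in the first 250 µm, 2.34 in the next, 0.663 (4 UMIs) between 500 and 1000 µm and 2.03 (1.39 to 2.87, 32 UMIs) beyond 1000 µm. Siglech was at 16.4 CPM in the first 250 µm outside the zone at 3 days and 19.6 CPM at 28 days, with 12.9 CPM beyond 1000 µm at 28 days.

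**Figure D4:**
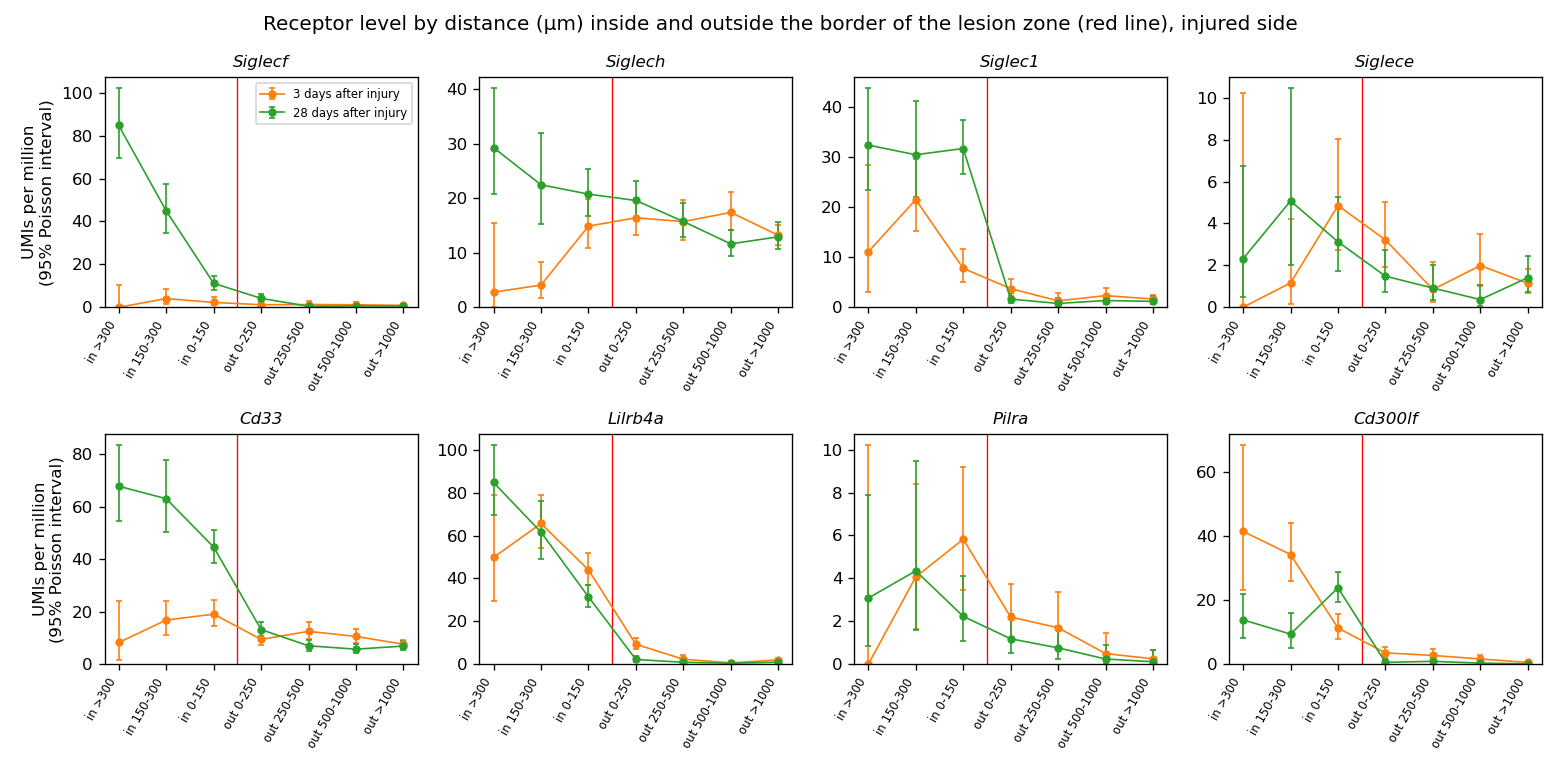
Level of the 8 receptor genes in CPM (95% Poisson intervals) on the injured side at 3 days (orange) and 28 days (green), by depth inside the lesion zone (left of the red line) and distance outside it (right) in µm. Siglecf at 28 days was highest in the deepest part of the zone, at 84.8 CPM, and Siglech at 3 days was lowest there.

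In bulk bins, fewer cells of a type and less RNA per cell cannot be told apart. The receptors were also set against the summed UMIs of 10 pan-myeloid genes (Csf1r, Ctss, Aif1, Tyrobp, Fcer1g, C1qa, C1qb, C1qc, Spi1 and Itgam). The level of these 10 genes per cell is not known here, so this scale does not give levels per cell. The 10 genes summed to 2722 CPM in the zone against 404 on the opposite side at 3 days, and to 7011 against 353 at 28 days. Per 1000 of these UMIs, the zone at 3 and 28 days gave 0.994 and 4.42 UMIs of Siglecf and 6.46 and 7.47 of Cd33. Siglec1 gave 4.62 and 4.50, Siglech 3.83 and 3.23, Siglece 1.21 and 0.478 and Pilra 1.78 and 0.399. Lilrb4a gave 18.96 and 6.70, and Cd300lf 7.74 and 2.75. The difference between the sections thus depended on the scale, and its cause was not tested. Per pan-myeloid UMI, Lilrb4a was still higher in the zone than on the opposite side, with log2 ratios of 3.20 (2.82 to 3.61) at 3 days and 2.01 (1.46 to 2.67) at 28 days. Cd300lf was at 2.55 and 0.63 and Siglec1 at 1.14 and 1.34. The intervals of Pilra held 0 at both times, at 0.58 (-0.21 to 1.33) and 0.25 (-1.11 to 2.12), and Siglecf was at -0.33 (-1.35 to 0.53) and 0.88 (0.39 to 1.43). Siglech was lower per pan-myeloid UMI, at -2.92 (-3.36 to -2.54) and -3.43 (-3.69 to -3.18), Siglece at -1.41 and -2.72 and Cd33 at -1.22 and -1.41. The sign for Cd33, and for Siglece and Siglecf at 3 days, depended on the reference. Against the summed genes of microglia, in which Sparc, also a gene of astrocytes and vessels, gave 4908 of 11548 zone UMIs at 3 days, Cd33 was at 0.32 (-0.02 to 0.64) at 3 days and 1.003 (0.78 to 1.22) at 28 days. Siglece was at 0.14 (-0.73 to 0.85) at 3 days and -0.31 (-1.09 to 0.40) at 28 days against that reference, with both intervals holding 0. Siglech was at -1.38 and -1.02 and Siglecf at 1.21 (0.19 to 2.07) and 3.29 (2.81 to 3.84).

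**Figure D5:**
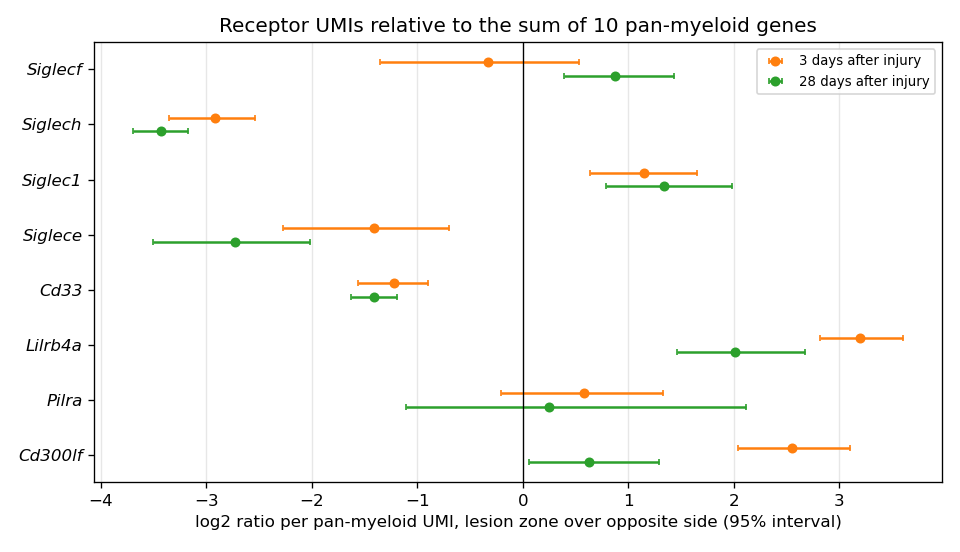
Log2 ratio between the lesion zone and the opposite side per UMI of 10 pan-myeloid genes, for the 8 receptor genes at 3 days (orange) and 28 days (green) with 95% intervals. Lilrb4a, Cd300lf and Siglec1 were right of 0 at both times, and Siglech, Siglece and Cd33 left of it.

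The share of bins with a UMI was compared after each bin of at least 300 UMIs was thinned to 300. Lilrb4a was in 1.52% (1.24 to 1.83) of zone bins at 3 days and 1.44% (1.21 to 1.71) at 28 days, against 0.0279% and 0.0113% of opposite-side bins. Siglecf was in 0.0583% (0.0159 to 0.149) of zone bins at 3 days and 1.15% (0.939 to 1.39) at 28 days. Pnlip, which brain cells should lack, was in 0.102% (0.0410 to 0.210) and 0.0546% (0.0177 to 0.127) of the same zone bins. The 3-day share of Siglecf rested on 4 bins and was not above that of Pnlip, and levels of different probes allow no closer reading. Siglece, at 0.102% and 0.0765%, and Pilra, at 0.160% and 0.0983%, lay within the counting interval of Pnlip at both times. The thinning left out 1664 zone bins at 3 days and 4404 at 28 days, and unthinned shares were 2.91% and 2.28% for Lilrb4a and 0.164% and 1.55% for Siglecf.

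The other genes of the pathway were read from lists. Of 4 other Siglecs, 4 passed the minimum of 20 UMIs at 3 days and 2 at 28 days, and a gene could pass through its zone UMIs alone. Cd22, known from B cells, gave 10 UMIs in the zone at 3 days and 91 at 28 days, 12.7 CPM, against 2 UMIs on the opposite side, while 5 B-cell genes together gave 17 UMIs in the same zone, 2.38 CPM against 0.863. Of these UMIs 14 were from Cd79b, whose log2 zone ratio was 2.31 (1.18 to 3.38), and the part of B cells in the level of Cd22 was not tested. Mag, the Siglec of myelin, was at 1012 CPM against 181 at 3 days, where oligodendrocyte genes were higher as a whole. Of 9 genes listed as other paired inhibitory receptors, 8 at 3 days and 9 at 28 days were at least 2-fold higher in the zone. Over all genes the shares were 21.9% and 17.4%. The median log2 ratios of the 9 were 2.43 and 2.82, and genes of phagocytes among them are higher there by construction. Pirb, the receptor for major histocompatibility complex class I, had the highest values, 4.72 (4.28 to 5.18) and 5.01 (4.47 to 5.62), and Sirpa, the receptor for CD47, the lowest, -0.15 (-0.22 to -0.07) and 1.03 (0.98 to 1.08). Of 10 activating relatives 4 passed that minimum at each time. Cd300c2, with the most UMIs of them on the opposite side, was at 30.7 CPM against 3.96 at 3 days and at 76.7 CPM against 4.56 at 28 days.

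Downstream of the receptors, 10 genes of adaptors, phosphatases and other signalling proteins such as Syk, Socs3 and Cbl were read. Of these, 7 were at least 2-fold higher in the zone at each time. Over all genes the shares were 21.9% at 3 days and 17.4% at 28 days. Signalling genes of myeloid cells are higher in the zone by construction, since phagocyte genes drew it. Ptpn6, the phosphatase SHP-1 of blood cells, had log2 ratios of 2.92 (2.74 to 3.09) and 4.35 (4.17 to 4.54), and Inpp5d, the phosphatase SHIP-1, 2.60 and 3.40. Ptpn11, the broadly expressed SHP-2, was at 0.42 and 0.19. Tyrobp, the adaptor that Siglec-H uses, was at 2.90 and 4.82 where Siglech was at -0.17 and 0.88. Of 9 measured genes of ligands, 4 were at least 2-fold higher in the zone at 3 days and 5 at 28 days, with medians of 0.14 and 2.00. The shares over all genes were 21.9% and 17.4%. Cd52, one of these ligand genes, helped to draw the zone and is higher there by construction. Apoe had a log2 ratio of 0.14 at 3 days and 3.75 at 28 days, and Cd47 -0.38 and -0.49. Of 26 genes that make, transfer or remove sialic acid, 2 were at least 2-fold higher at each time and 4 and 6 at least 2-fold lower. Over all genes 21.9% and 17.4% were at least 2-fold higher, and the share at least 2-fold lower is not given here. The median log2 ratios of the 26 were -0.09 and -0.19, against 0.15 and -0.01 over all genes.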

How the data were processed

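The authors profiled 10 µm coronal sections of paraffin-embedded brain with Visium HD, in which pairs of probes against each transcript are ligated, captured on an array and counted by UMI, and deposited raw counts per gene and 16 µm bin (Space Ranger 4.0.1, mm10, per the submitters' processing notes and the file headers). Each count is a whole number of UMIs and was not normalized. From these counts, bins with at least 100 UMIs were summed over areas, divided by the area total, and set against each other as a log2 ratio (0.5 added to each sum) with its exact binomial interval. Genes needed 20 UMIs over both areas. The 8 genes and all gene lists were chosen with earlier results of these data known, as were the borders. Some genes that these rules would name are not reported here. Named list genes were those with the highest and lowest ratios and those a result turned on. The lesion zone joined tiles of 4 by 4 bins in which the 6 phagocyte genes, smoothed over 5 by 5 tiles, exceeded the 99th percentile of the opposite side, in patches of at least 25 tiles. Tiles of 256 µm gave the correlations, for genes with at least 200 UMIs. The interval method was tested on simulated independent counts, the setting it assumes. Such counts leave out the clustering of UMIs in cells and neighbouring bins, so the test does not cover it. With 1 section per group no p-value was computed. Alternatives covered scaling (TMM in edgeR 4.0.16, R 4.3.3; UMIs per bin), filters, borders, zone rules and thinning. Python 3.11.15, numpy 2.4.6, pandas 2.3.3 and scipy 1.17.1 were used.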

Additional observations from a re-analysis of the deposited data

Results flagged for a closer look

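Siglech in the lesion zone against the opposite side had opposite signs in the sections, with a log2 ratio of -0.17 (-0.60 to 0.22) at 3 days and 0.88 (0.62 to 1.13) at 28 days. The difference of 1.05 (0.58 to 1.52) covers counting error only and was not tested between animals, since each time had 1 section, and the interval at 3 days held 0. The value at 3 days turned to 0.26 when the zone was drawn at the 95th percentile. Siglech also differed between white matter and remaining bins of the opposite side, as given above, and the part of tissue makeup was not tested.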

How the results depend on the processing

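No paired analysis was possible because each time had 1 section and no replicate. The counts of genes at least 2-fold higher stayed within 1.5 times in all 48 alternatives. With so few genes this range is wide. Counted per bin, Cd33 at 0.77 and Siglece at 0.58 fell under 2-fold in the 3-day zone and the count stayed within it. The alternative without a minimum of UMIs per gene could change no value, here or below, since all 8 genes passed the minimum. In 44 of 48 alternatives the median ratio stayed between the median lower limit and the median upper limit of the single genes. That range is not a counting interval of the median itself. With bins thinned to 300 UMIs the medians at 28 days were 1.75 for the sides and 3.71 for the zone, with Pilra under the gene minimum and so 7 genes. Against the rest of the injured side, an alternative chosen after seeing the data, the zone medians were 1.94 at 3 days and 3.60 at 28 days. Of 381 alternative values of single genes 340 stayed within the main interval, 41 moved beyond it and 0 changed the sign of a ratio whose interval excluded 0. Scaled to myeloid genes, signs changed with the reference. With the full microglia list, Siglece in the zone at 3 days was at 0.14 and Cd33 at 0.32, and Cd33 at 28 days was at 0.53 for the sides and 1.003 for the zone. The cause was not tested. With 1 section per time, depth limits counting error only, and Pilra, Siglece and Siglecf at 3 days rest on few UMIs.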
